A study of Arabidopsis thaliana with 2 samples.

Results

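The distal end of chromosome 3 of Arabidopsis thaliana, from 17 Mb to the last listed SNP at position 23456808 (TAIR10), carried 2218 listed SNPs, out of 9938 on the chromosome and 40612 on the 5 nuclear chromosomes. Members were taken by chromosome and position alone, but the boundary at 17 Mb was drawn with the SNP density of the chromosome in view. Density is therefore described here and not tested. The stretch made up 27.5% of the listed length of chromosome 3 and held 22.3% of its SNPs.

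The list comes from a study that mapped potent, a dominant mutation with impaired lateral root formation. Seeds of a Col-0 line carrying DR5::Luciferase, pWOX5::ER-YFP and pSCR::ER-GFP were treated with 50 mM ethyl methanesulfonate (EMS) for 12 hours, and the mutant was crossed 6 times to this parental line, kept heterozygous, and then crossed 5 times to the ecotype Landsberg erecta (Ler). Genomic DNA was sequenced from seedlings of the fifth Ler cross, 1 pool with and 1 pool without the potent phenotype, both with Ler as the labelled ecotype. The table of positions is titled as homozygous SNPs and names neither pool, so no phenotypes were compared and no replicate error exists. It gives no allele, read depth or quality: where no SNP is listed, the DNA may match Col-0, be heterozygous or not have been callable, and these cannot be told apart.

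Col-0 and Ler are inbred accessions that differ at many sites along every chromosome. After repeated crosses to Ler, a site at which the plants carry only the Ler base is read as a homozygous difference from the Col-0 reference, while a segment that still carries Col-0 DNA on one copy gives heterozygous sites there. Even between accessions, differences are uneven along a chromosome: coding sequence usually differs less than the sequence between genes, and neighbouring differences are inherited together on the same haplotype.

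SNPs were of intermediate density from 17 Mb on, lower than in the first 10 Mb of the chromosome. The distal stretch held 343.5 listed SNPs per Mb (95% Poisson interval 329 to 358) over 6.46 Mb. Up to 10 Mb the chromosome carried 7106, at 711 per Mb (694 to 727), with 614 in the 7 Mb between both stretches. The density of the first 10 Mb was 2.07 times that of the distal end (interval of the ratio 1.97 to 2.17). All intervals in this text cover counting error only, and SNPs inherited together are not independent, so they are too narrow as limits on either stretch.

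No step marked the boundary. The last SNP before it stood at 16999833 and the first after it at 17001542, 1709 bp apart, and the 500 kb windows on either side held 86 and 105 SNPs. From there the counts in consecutive 500 kb windows ran 105, 103 and 86 up to 18.5 Mb. They rose to 153, 164 and 227 up to 20 Mb and reached 259 and 249 between 20 and 21 Mb. They then dropped to 175 and 117 between 21 and 22 Mb, recovered to 189 and 173 up to 23 Mb, and the last, shorter window of 0.457 Mb held 218, or 477 per Mb. The stretch therefore had a low shoulder beside the centromeric side, a crest around 20 to 21 Mb, a dip, and a second rise toward the end of the arm.

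**Figure D1:**
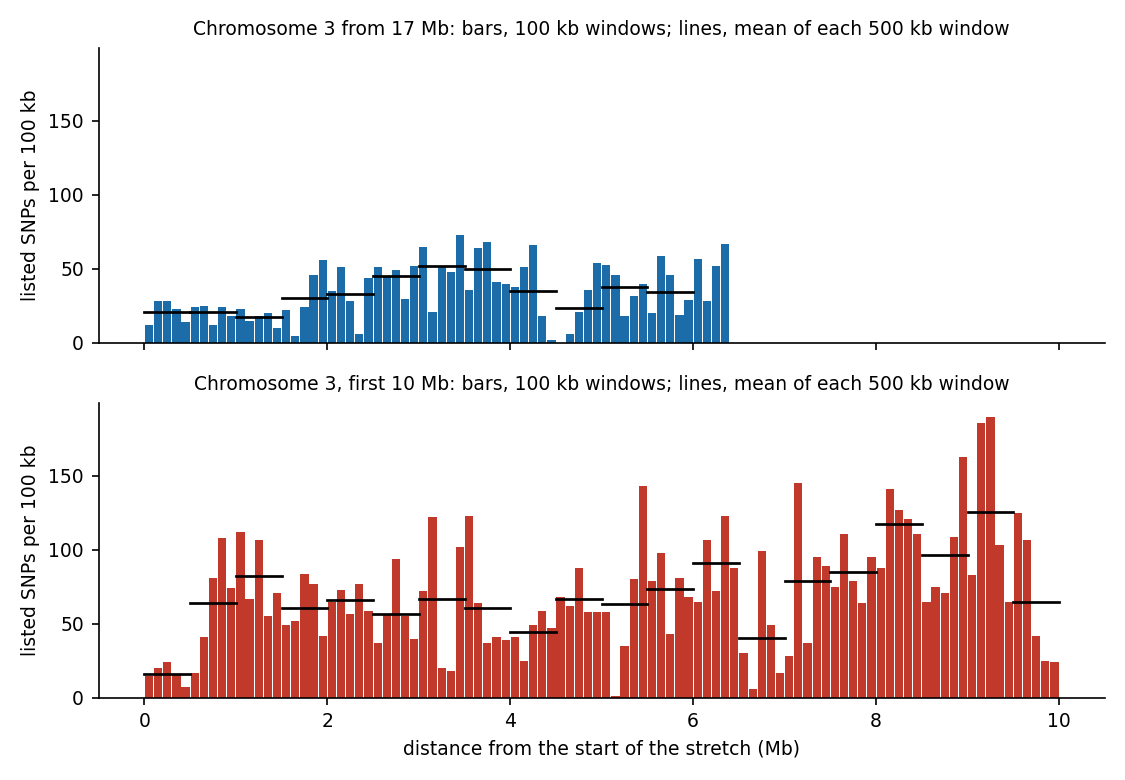
Listed SNPs per 100 kb window (vertical axis) against the distance from the start of each stretch in Mb (horizontal axis), for chromosome 3 from 17 Mb (top) and its first 10 Mb (bottom); black lines give the mean of each full 500 kb window. Distal 100 kb windows lie between 0 and 73 SNPs, those of the first 10 Mb between 1 and 190.

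Full 500 kb windows of the distal end held between 86 and 259 SNPs, with a median of 168.5 over 12 windows. The 20 such windows of the first 10 Mb held between 82 and 627, with a median of 332.5. Of these 20 windows, 17 lay above the densest distal window and 1 lay at or under the distal median. That 1 window was the first of the chromosome, with 82 SNPs, which is as sparse as the shoulder at 18 Mb.

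The shoulder and the crest differed in density, and distances and clumps, both measured in fixed bp, change with density alone. Between 17 and 18.5 Mb there were 294 SNPs, or 196 per Mb (174 to 220), with a median distance of 2628 bp between neighbours. Clumps, defined as 5 or more SNPs each within 1000 bp of the next, numbered 1 there and held 7 SNPs (2.38%). Between 20 and 21 Mb there were 508 SNPs per Mb (465 to 554), a median distance of 864 bp and 23 clumps with 143 SNPs (28.1%). From 18.5 to 20 Mb 13 clumps held 16.7% of the SNPs, from 21 to 22 Mb 12 clumps held 27.7%, and from 22 Mb to the end 18 clumps held 21.4%. The 21 to 22 Mb segment thus had fewer SNPs per Mb, 292 (259 to 328), yet a short median distance of 955 bp: its SNPs were dense outside an almost empty stretch. These segment bounds were set after the window counts were seen.

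Neighbouring SNPs of the distal end lay a median of 1153 bp apart (order-statistic 95% interval 1058 to 1254), with quartiles of 252 and 3309 bp. The median was 496 bp in the first 10 Mb, and the quartiles 102 and 1544 bp. Of the 2217 distal distances, 39 were of 1 bp (adjacent bases), 163 were of 10 bp or less (7.35%, exact binomial 95% interval 6.30 to 8.52), 395 of 100 bp or less (17.8%, 16.2 to 19.5) and 1033 of 1000 bp or less (46.6%, 44.5 to 48.7). The first 10 Mb had 8.14% (7.51 to 8.80) of its distances at 10 bp or less, 24.9% (23.9 to 25.9) at 100 bp or less and 65.9% (64.8 to 67.0) at 1000 bp or less. At 10 bp the intervals of the stretches overlapped, and at 100 and 1000 bp they did not.

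Much of that difference went with density. Divided by the mean distance of each stretch, 2912 bp and 1406 bp, the distances had nearly the same spread, with a coefficient of variation of 2.15 in the distal end and 2.25 in the first 10 Mb. The median was 39.6% and 35.3% of the mean. In 100 kb windows matched on their count, close neighbours were about as frequent in both in the denser classes of windows. With 45 to 59 SNPs per window, 52.4% of distances (49.0 to 55.8, 17 windows) were of 1000 bp or less in the distal end and 51.9% (48.3 to 55.6, 14 windows) in the first 10 Mb. With 30 to 44 SNPs the shares were 46.1% (40.9 to 51.4, 10 windows) and 48.2% (43.7 to 52.7, 13 windows). With 15 to 29 SNPs they were 35.4% (31.1 to 39.9, 22 windows) and 41.4% (35.0 to 47.9, 12 windows). The intervals overlapped in each class. Median distances in the distal end and the first 10 Mb were 883 and 925 bp with 45 to 59 SNPs. They were 1122 and 1114.5 bp with 30 to 44 SNPs, and 1910 and 1489 bp with 15 to 29. Windows outside these classes were not matched, among them the densest of the first 10 Mb, with up to 190 SNPs.

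**Figure D2:**
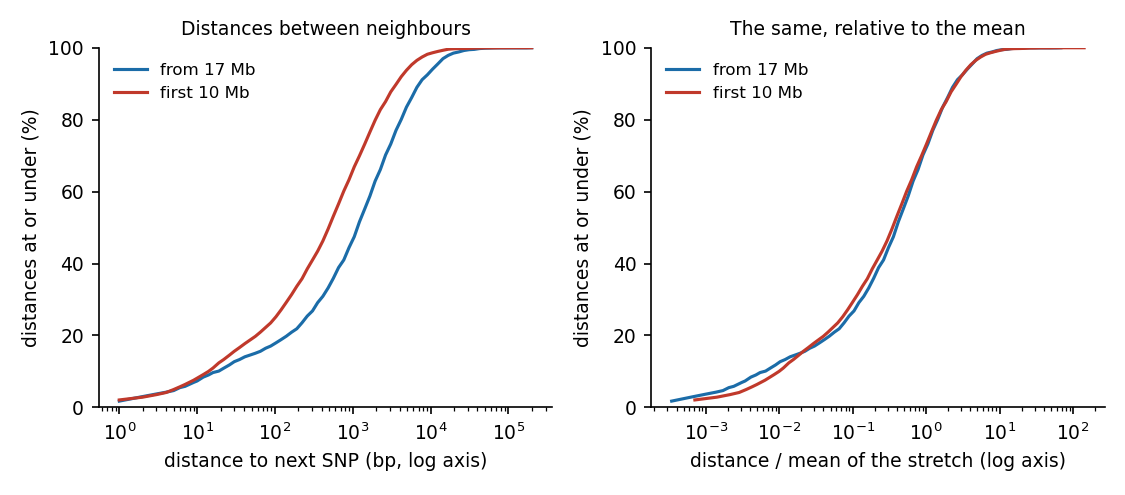
Share of distances between neighbouring listed SNPs that are at or under a given value (vertical axis, %), for chromosome 3 from 17 Mb (blue) and its first 10 Mb (red), against the distance in bp (left, log axis) and against the distance divided by the mean of the stretch (right, log axis). The curves stand apart on the left, where the medians are 1153 and 496 bp, and nearly coincide on the right except at the shortest distances.

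**Figure D3:**
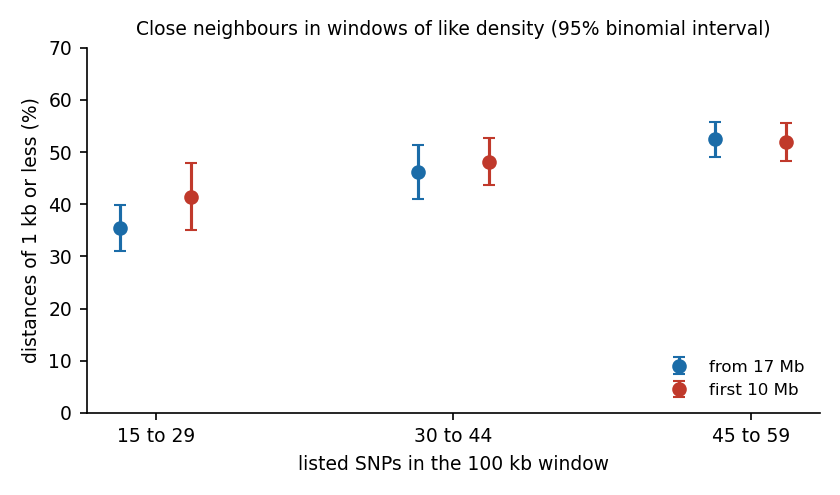
Share of distances of 1 kb or less (vertical axis, %) in 100 kb windows grouped by their number of listed SNPs (horizontal axis), for chromosome 3 from 17 Mb (blue) and its first 10 Mb (red). Points are shares over all distances within the windows of a class and bars exact binomial 95% intervals, which overlap in all 3 classes.

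Both the share of occupied bins and the SNPs per occupied bin were lower in the distal end. With bins of fixed size, a lower density alone lowers both, so the values do not separate them. Of 6456 bins of 1 kb in the distal end, 23.2% held a SNP, with 1.48 SNPs per occupied bin, against 37.7% and 1.88 in the first 10 Mb. At 10 kb, 80.9% of distal bins were occupied with 4.25 SNPs each, against 91.4% and 7.77. Chains of SNPs within 1000 bp of each other, counted once, numbered 184 per Mb in the distal end and 242.5 in the first 10 Mb, a ratio of 1.32. A chain held 1.87 SNPs on average in the distal end and 2.93 in the first 10 Mb, but chains join more readily where SNPs are dense.

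Chromosome 2 from 6 Mb, at 300.4 SNPs per Mb (291 to 310), came close to the distal end in density and served as another yardstick for spacing, although its positions did not register with the gene annotation. Its median distance was 1475 bp, 41.5% of its distances (40.0 to 43.0) were of 1000 bp or less and 4.93% (4.29 to 5.64) of 10 bp or less. Distances of 10 bp or less were thus more frequent in the distal end of chromosome 3, with intervals that did not overlap.

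Clumps held 446 distal SNPs (20.1%, 18.5 to 21.8) in 67 clumps, or 10.4 clumps per Mb. By comparison, 406 clumps of the first 10 Mb held 51.7% (50.5 to 52.9), or 40.6 per Mb. Most distal clumps were small: 28 held exactly 5 SNPs and 7 held 10 or more, with a median span of 1383 bp. Of the clumped SNPs, 55.6% lay in protein-coding genes, close to the 54.8% of all distal SNPs. Every SNP lay in a protein-coding gene in 18 clumps, and none did in 12.

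With 17 SNPs in 4916 bp, from 18892463 to 18897378, 1 clump was the largest. It overlapped PSBO2 (AT3G50820), a subunit of the oxygen-evolving complex of photosystem II, COR413-PM2 (AT3G50830), a cold-regulated membrane protein, and AT3G50840, and 9 of its SNPs lay in protein-coding genes. Its tightest part ran through positions 18896021, 18896054, 18896129, 18896145 and 18896156. The next clump, 12 SNPs from 21026584 to 21029845, overlapped AT3G56770 and included the adjacent bases 21027792 and 21027793. The tightest of the clumps with 11 SNPs spanned 1352 bp, from 21271950 to 21273301, wholly inside AT3G57470, at 8.14 SNPs per kb. The largest clump of the first 10 Mb held 45 SNPs.

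A gap of 189 kb lay at the bottom of the dip between 21 and 22 Mb. No SNP was listed between 21437708 and 21626834, and the gap was 65.0 times the mean distal distance. The next longest distal gaps were 61.5 kb, from 19295659 to 19357130, and 50.9 kb, from 17027910 to 17078831, and no other distance reached 50 kb. In the first 10 Mb the longest gap was 103 kb, from 5079992 to 5182864, shorter in bp but 73.1 times the mean distance there. Another gap of 45.6 kb followed it directly, with only the SNP at 5182864 between them. Gaps of 78.3 kb and 47.2 kb in the first 10 Mb also met at a single SNP, at 6992880. Adjoining gaps were thus not particular to the distal end.

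Scattered SNPs flanked the gap rather than dense ones. Between 21352798 and 21685890, a span of 333 kb, 5 SNPs were listed, or 15.01 per Mb (4.87 to 35.0). They stood at 21398339, in AT3G57770, at 21437661 and 21437708, 47 bp apart and between protein-coding genes, at 21626834, in AT3G58470, and at 21639679, between protein-coding genes. The 100 kb before this span held 54 SNPs and the 100 kb after it 23. The span held 99 protein-coding genes, of which 2 carried a SNP, and its 297 protein-coding genes per Mb were close to the 296 of the segment from 21 to 22 Mb. The span was drawn outward from the longest gap across further long distances on either side, after the positions were seen. Its low density and few genes with a SNP follow largely from that choice, which its interval does not take into account.

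**Figure D4:**
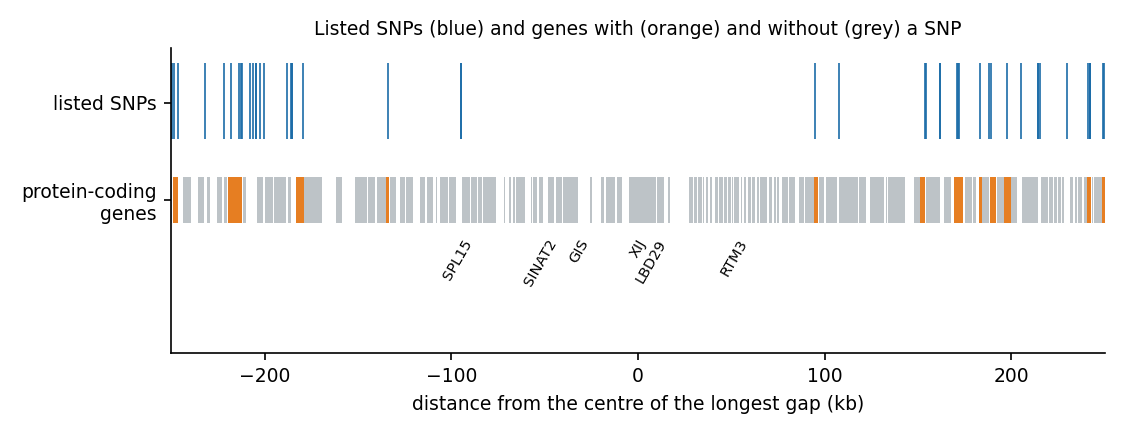
Listed SNPs (blue ticks) and protein-coding genes with (orange) and without (grey) a listed SNP, against the distance in kb from the centre of the longest distal gap. The gap of 189 kb is filled with grey genes, and 5 SNPs lie in the 333 kb span around it.

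Inside the gap lay 58 protein-coding genes, 9 lncRNA genes and 1 pseudogene. It belonged to the longest run of consecutive protein-coding genes without a SNP, 70 genes from AT3G57780 to AT3G58460; the next longest distal run, from AT3G51950 to AT3G52180, had 28 genes and covers the gap of 61.5 kb. The longest run of the first 10 Mb had 51 genes, from AT3G15090 to AT3G15500. Among the genes inside the gap were SPL15 (AT3G57920), a SQUAMOSA promoter-binding-like transcription factor of flowering, and SINAT2 (AT3G58040), a homologue of the Drosophila ubiquitin ligase sina. GIS (AT3G58070), a zinc finger regulator of trichomes, XIJ (AT3G58160), a myosin, and RTM3 (AT3G58350), which restricts the movement of a potyvirus, lay there too. LBD29 (AT3G58190), a LATERAL ORGAN BOUNDARIES DOMAIN transcription factor that acts in lateral root initiation downstream of auxin response factors, lay 111 kb after the SNP that opens the gap and 77.3 kb before the SNP that closes it. These 6 were picked among the 58 from those with a symbol, and LBD29 is also on a list. PGL34, PDCB5, BZIP61, BS14A and RBL15 have a symbol too and were not described. The absence of listed SNPs is a property of the whole gap and says nothing of any gene in it.

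The gap of 61.5 kb held 22 protein-coding genes, or 358 per Mb, among them the serine carboxypeptidase-like genes scpl37 and scpl39, NRPB11, a small subunit of RNA polymerase II, and GR1, a homologue of the DNA repair protein COM1. The gap of 50.9 kb near the start of the stretch was poorer in genes, with 7 protein-coding genes and 6 pseudogenes. Distances of 20 kb or more numbered 29 in the distal end and together covered 16.7% of it, against 20 that covered 8.04% of the first 10 Mb. A fixed cut of 20 kb is reached more readily where SNPs are sparser. Of the 29, 10 lay wholly before 18.5 Mb.

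Protein-coding genes of the distal end carried listed SNPs more often than those of the genome and less often than those of the first 10 Mb. At least 1 SNP fell between the annotated ends of 660 of 1815 protein-coding genes (36.4%, exact binomial 95% interval 34.1 to 38.6). The share was 29.2% over the protein-coding genes of all 5 chromosomes and 27.5% without chromosome 2, on which listed positions and annotation did not register. In the first 10 Mb it was 1493 of 2892 (51.6%, 49.8 to 53.5). A distal gene with a SNP held 1.87 on average, against 2.73 there and 2.32 in the rest of the genome. Of the 660, 390 held exactly 1. Summed over genes, 1231 distal SNPs fell on 1815 genes, and 17069 on 25629 genes in the rest of the genome. The larger distal share thus went with fewer SNPs per gene hit. Counts for the rest of the genome include chromosome 2. Along the stretch the share was 29.6% (25.1 to 34.4) from 17 to 18.5 Mb, 35.3% (30.8 to 40.1) from 18.5 to 20 Mb, 47.5% (41.6 to 53.5) from 20 to 21 Mb, 27.4% (22.4 to 32.8) from 21 to 22 Mb and 42.2% (37.4 to 47.1) from 22 Mb to the end. The crest had the highest share, and the 21 to 22 Mb segment did not exceed the shoulder in its share although it held more SNPs per Mb. Of the 296 genes of that segment, 99 lay in the span of 333 kb around the longest gap, and 2 of these carried a SNP.

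SNPs were scarcer inside protein-coding genes than between genes, in a like proportion to the first 10 Mb. Protein-coding genes covered 66.0% of the distal bases and held 54.8% of the SNPs (52.7 to 56.9), a density of 285 per Mb (270 to 302). Sequence outside every annotated gene held 475 per Mb (445 to 506), 1.66 times as many. In the first 10 Mb the densities were 582 (565 to 601) and 1020 (983 to 1058) per Mb, a ratio of 1.75. The first 10 Mb thus held 2.04 times the distal density inside protein-coding genes and 2.15 times outside every gene: the difference between the stretches was about as large in either class.

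Pseudogenes stood apart from this. Distal pseudogenes held 19 SNPs over 131 kb, or 145 per Mb (87.3 to 226), under the density of distal protein-coding genes. Pseudogenes of the first 10 Mb held 636 per Mb (534 to 753), 4.39 times as many. Between 10 and 17 Mb, pseudogenes also lay under protein-coding genes, at 38.4 (30.3 to 48.0) against 96.8 (81.7 to 114) per Mb. Of the distal pseudogene bases, 38.5% lay in the sparse shoulder up to 18.5 Mb, with 5 SNPs. Nearly as many, 38.0%, lay in the denser segment from 22 Mb to the end, with 6 SNPs. Without the shoulder the density was 174 per Mb (95.1 to 292), from 14 SNPs. The distal count is small.

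Density inside genes fell with distance from the gene boundary. Within 100 bp of a boundary, protein-coding genes held 440 SNPs per Mb (370 to 520), from 500 to 1000 bp inside 257 (229 to 287), and beyond 2000 bp 254 (212 to 301). Outside genes the density was 429 (356 to 512) within 100 bp, 538 (475 to 608) at 500 to 1000 bp, and 254 (198 to 320) more than 2000 bp from any protein-coding gene. That last density was lower than in each other class outside genes, with intervals that did not overlap. In the first 10 Mb the density farthest from genes, 855 per Mb (771 to 947), was also the lowest outside genes. Its interval lay below those at 100 to 250 bp (972 to 1159) and 250 to 500 bp (952 to 1122) and overlapped those of the other classes outside genes, among them 1008 per Mb (929 to 1092) at 1000 to 2000 bp.

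**Figure D5:**
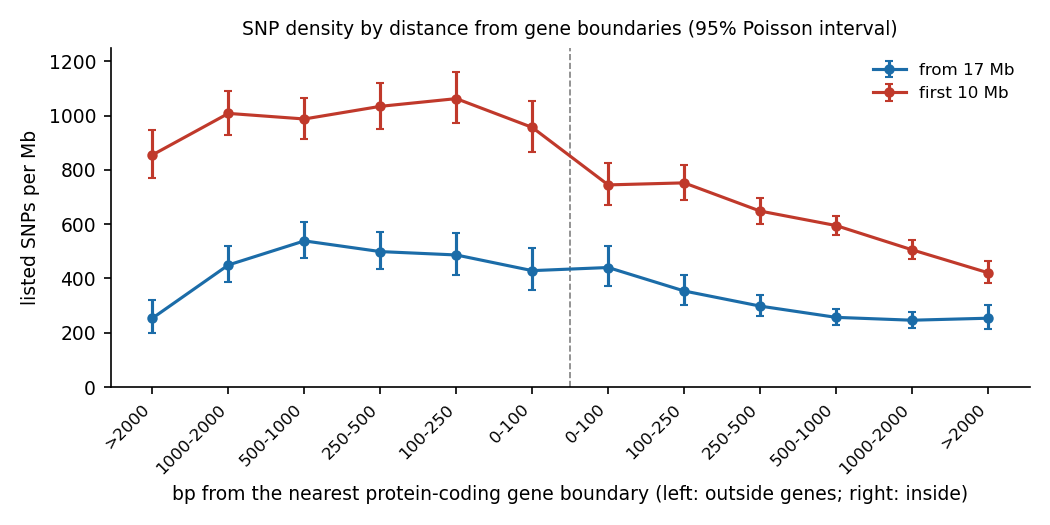
Listed SNPs per Mb (vertical axis) by distance in bp from the nearest boundary of a protein-coding gene (horizontal axis), outside genes left of the dashed line and inside genes right of it, for chromosome 3 from 17 Mb (blue) and its first 10 Mb (red); bars are Poisson 95% intervals. Both curves fall inside genes, and both have their lowest value outside genes at more than 2000 bp, 254 per Mb in the blue curve and 855 per Mb in the red.

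Pairs of SNPs inside the same run of genic sequence were more often a whole number of codons apart than pairs outside genes, as a count. Of 268 distal pairs at most 99 bp apart inside protein-coding genes, 107 (39.9%, 34.0 to 46.1) were separated by a multiple of 3 bp. Outside protein-coding genes 66 of 207 were (31.9%, 25.6 to 38.7), and the intervals overlapped. The first 10 Mb gave 36.2% (33.6 to 38.8) of 1313 pairs inside and 31.9% (29.0 to 35.0) of 971 outside. Over chromosomes 1, 3, 4 and 5 the shares were 37.2% (35.8 to 38.7) and 32.5% (31.3 to 33.8). Pairs share SNPs, genes include introns here, and the distal values alone do not separate the classes.

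Of the 10 genes with the most listed SNPs, 5 had them in the crest between 20 and 21 Mb, 1 in the dip between 21 and 22 Mb and 4 beyond 22 Mb. AT3G57470 had 16 SNPs, from 21271950 to 21275686, all of them in clumps, 77.1 kb before the nearly empty span. AT3G62360 had 14 spread over 7558 bp and AT3G55160 had 14 over 6769 bp, 13 of them in clumps in each gene. TTN8 (AT3G54670), the cohesin subunit SMC1, had 12 over 5915 bp, of which 5 were in clumps. These are long genes, of 6869 to 8541 bp, with 1.41 to 2.33 SNPs per kb.

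LAF3 (AT3G55850), which acts in far-red light signalling, and AT3G55020 had 9 SNPs each. GAUT1 (AT3G61130), a galacturonosyltransferase of pectin synthesis, AT3G63210, also named MARD1 for its link to dormancy under abscisic acid, and RGD3 (AT3G54280), a homologue of the TATA-binding protein regulator BTAF1, had 8 each. The last differed from the others in that none of its 8 SNPs lay in a clump. They spanned 5869 bp of a gene of 12406 bp, at 0.645 per kb. ATL5 (AT3G62690), a RING finger protein, had 7 SNPs within 668 bp, the highest density of the 10 at 5.10 per kb.

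Of 8 distal genes from the lists of auxin signalling, auxin transport and root development, 3 held a listed SNP, against 36.4% of all distal genes. In auxin signalling, TIR1 (AT3G62980), the F-box auxin receptor, IAA30 (AT3G62100), an Aux/IAA repressor, and ARF18 (AT3G61830), an auxin response factor, had 0. Around TIR1 the nearest SNPs stood 2.45 kb before and 2.34 kb after the gene, and IAA30 lay 10.8 kb and 15.3 kb from its neighbours. In transport, ABCB21 (AT3G62150), an auxin transporter of the ABC family, had 3, at 23012109, 23012747 and 23013420.

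Among root genes, SCR (AT3G54220), the GRAS transcription factor of root ground tissue whose promoter drives a reporter of the mutagenized line, had 2, at 20071287 and 20072271. ACR4 (AT3G59420), a receptor kinase that limits formative divisions in the root, had 2, at 21959726 and 21960735. MYB77 (AT3G50060), a transcription factor of lateral root growth, and LBD29 had 0. The cytokinin response regulator ARR9 (AT3G57040), a type-A repressor of the pathway, had 3, of which 21109107 and 21109115 lie 8 bp apart, and ARR5 and ARR17 had 0. The shoot genes AP3 (AT3G54340), a floral homeotic MADS factor, and AMP1 (AT3G54720), a putative carboxypeptidase of meristem size, had 0 each.

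Immune genes from the list held SNPs in 7 of 10, beside 36.4% of all distal protein-coding genes and 11 of the 23 distal genes on all lists. RPP13 (AT3G46530), a nucleotide-binding leucine-rich repeat receptor against downy mildew known for its variation between accessions, had 3, at 17131262, 17131274 and 17132389. ZAR1 (AT3G50950), a receptor of the same class that forms the resistosome, had 3, at 18936124, 18936540 and 18937167. The lipase-like immune regulators EDS1 (AT3G48090), its neighbour EDS1B (AT3G48080) and PAD4 (AT3G52430), and the transcription factor WRKY70 (AT3G56400), had 1 each. Of the 4 homologues of the powdery mildew resistance gene RPW8, HR1 (AT3G50450) had 1 and HR2, HR3 and HR4 had 0. EDS1 and EDS1B, and the HR genes, are related copies next to each other, and how reads were placed among them was not tested. The lists are short and the share was not tested.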

How the data were processed

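Genomic DNA of 2 seedling pools was sequenced on a HiSeq2000, per the labels' protocols, with 1 pool per phenotype. The authors deposited 1 table of chromosome numbers and positions, per the file headers, on TAIR10, per the submitters' processing notes; the series' design text names SNPtrack as the pipeline. How reads were aligned, which thresholds applied and what made a site homozygous is not stated, and the depth is unknown. In the position columns 5 cells were not numbers and were left out.

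Distances, windows, chains and clumps were computed with Python 3.11.15, numpy 2.4.6, pandas 2.3.3 and scipy 1.17.1, with exact 95% Poisson and binomial intervals, and the functions were tested on simulated positions. Gene models are those of RefSeq for the assembly TAIR10.1. Placement was checked by shifting the positions along it in 401 steps within 20 kb: the share of distal SNPs in protein-coding genes was 54.8% unshifted, 54.2% at its lowest (a shift of -100 bp), and 67.9% and 67.3% at shifts of 3000 bp either way. No gene model coordinates are printed. All 34 list genes were found by locus identifier, and 23 lay in the distal stretch. Named genes are the 10 with the most SNPs, list members, genes in or beside the longest gaps and in the largest clump; genes of the next clumps were named after their values were seen.

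Members, lists and rules were chosen with earlier results of these data known. With 1 list naming no pool, no test was made. Codon positions, reference bases, coding sequence and product classes, planned at the outset, were not analysed here.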

Additional observations from a re-analysis of the deposited data

How the results depend on the processing

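No paired analysis was possible because the list names no pool and each phenotype was pooled once. Of 30 alternatives, 10 stayed within the counting interval of the main value (or, for gene counts, within 1.5 times of it) and 20 did not. The distal density of 343.5 per Mb was 323.5 from 16 Mb, 368 from 18 Mb and 233 thinned to 1 SNP per 1 kb. The density ratio of 2.07 was 1.62 thinned, 1.75 against the first 6 Mb, 2.20 from 16 Mb and 1.93 from 18 Mb. With chains counted once it was 1.32. Each ratio was above 1, which the choice of the first 10 Mb as the dense stretch favours in advance. The lowest window of 172 per Mb became 68 with 250 kb windows, and the highest of 518 became 600 with 250 kb windows and 592 with shifted ones. The median distance of 1153 bp became 2338 bp thinned, which removes short distances by construction. The longest gap of 189.1 kb was 189.2 kb thinned, 248 kb (to 21685890) without SNPs that have no neighbour within 10 kb, and 333 kb without those with fewer than 2, steps that can only lengthen it. The share in clumps, 20.1%, followed its definition: 8.39% at 500 bp, 44.1% at 2000 bp, 45.9% with at least 3 SNPs, 3.79% with at least 10, and 32.6% with the distance set to 0.5 times the mean of the stretch, where the first 10 Mb gave 40.2%. It was lower than in the first 10 Mb (28.8%, 75.6%, 70.4% and 26.9% at the other settings) in all 5. Chains counted once, sequence outside every gene, SNPs with fewer than 2 neighbours and the scaled clump distance were chosen after seeing the data. Alternatives that need coding sequence, transcripts, reference bases or the chromosome length were not run. The unknown read depth limits every stretch without SNPs.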

Other observations

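Listed positions and gene annotation registered on 4 of the 5 chromosomes. With positions moved along the annotation in 401 placements within 20 kb, the share of SNPs in protein-coding genes was lowest without a shift on chromosomes 1 (52.1%), 3 (53.8%) and 5 (38.5%), and on chromosome 4 it was 33.8% unshifted and 33.6% at its lowest. On chromosome 2 it was 46.3% unshifted, above the median of 44.3% over the placements, and its lowest value of 42.4% was at a shift of 17200 bp. Counts of SNPs per gene on chromosome 2 are therefore uncertain. They enter only the background share of 29.2% over all 5 chromosomes and the counts for the rest of the genome. The cause was not tested.

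Clumps of the distal end also touched genes that are on none of the lists. Among the clumps of 7 or 8 SNPs, 1 overlapped AtATG18a (AT3G62770), an autophagy protein, 1 overlapped PUMP1 (AT3G54110), a mitochondrial uncoupling protein, 1 touched BOP1 (AT3G57130), a regulator of leaf and flower patterning, and 1 touched CWINV2 (AT3G52600), a cell wall invertase. These genes were chosen after their values were seen, for having a known role.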
